A study of Mus musculus with 10 samples.

Results

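The transcripts described here are the nuclear-encoded subunits of the oxidative phosphorylation (OXPHOS) system in mouse islets, with the assembly factors that share their names. They were taken by symbol from the deposited table: names starting with Nduf followed by a, b, c, s or v, the 4 Sdh subunit genes, and names starting with Uqcr, with Cox and a digit from 4 to 8, or with Atp5. This rule gave 91 of the 47340 genes in the table, after 4 pseudogene names ending in -ps and 1 further matching gene were left out. Of the 91, 87 had a mean of at least 1 FPKM (fragments per kilobase of transcript, scaled to library size) in a group and were tested, among 13065 genes tested in all.

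Islets of 10 male mice, 12 wk old and kept on chow, gave 1 RNA library each. The libraries FL1 to FL5 (n = 5) came from floxed control mice, which carry loxP sites in both copies of Fitm2, the gene of the ER protein FIT2, and no Cre. The other libraries, KO1 to KO5 (n = 5), came from βFIT2KO mice, with the same floxed alleles and a Cre transgene under the rat insulin 2 promoter, Tg(Ins2-cre)25Mgn, so that the deletion is meant for β cells and the other islet cells should keep the gene. Islets rested in culture overnight before lysis, and no library from mice with Cre alone was analysed here, so deletion of Fitm2 and presence of Cre cannot be told apart.

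Oxidative phosphorylation passes electrons from NADH through complex I, or from succinate through complex II, to ubiquinone, then through complex III and cytochrome c to complex IV, where oxygen is reduced. Complexes I, III and IV pump protons out of the matrix, and complex V, the ATP synthase, lets them back to make ATP. Most subunits are encoded in the nucleus, and a small set in complexes I, III, IV and V is encoded by mitochondrial DNA (mtDNA). In β cells this ATP closes potassium channels after glucose rises, which leads to calcium entry and insulin release. The study measured the ATP/ADP ratio after glucose in islets of βFIT2KO mice, by an assay apart from the RNA libraries. The comparison below asks whether the transcripts of the machinery itself differed in level between FL and KO.

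Fitm2 itself was listed at 16.9, 30.5, 16.5, 37.1 and 15.5 FPKM in FL1 to FL5 and at 4.56, 4.30, 7.75, 9.13 and 9.0 FPKM in KO1 to KO5, so every KO library lay below every FL library. The difference on the log2(FPKM + 1) scale was -1.58 (SE 0.28), with an adjusted p of 0.00228 by limma. The smallest nonzero values of the table place the read depth of the libraries between 1.00 and 2.42 times that of FL1, and the KO libraries between 1.49 and 2.03 times. Of the 12 endocrine markers looked up, 5 that define islet tissue (Ins1, Ins2, Gcg, Iapp, Chga) were listed at 0 in all 10 libraries, while Sst, Pdx1, Nkx6-1 and Slc2a2 were present. A listed 0 in this table may be a failed estimate of an abundant transcript, so here and for the genes below it is not read as absence. Acinar markers summed to 4498 to 11996 FPKM in FL and 3029 to 22279 FPKM in KO, with KO5 highest and KO2 and KO3 lowest, and none of the 10 tested passed the test. All 5 tested stellate and fibroblast markers, 4 of 7 leukocyte markers and 3 of 8 endothelial markers were higher in KO, and 5 of the 7 tested endocrine markers were lower. Of the alpha cell markers 2 of 6 tested were lower, with sums of 505 to 733 FPKM in FL and 359 to 495 FPKM in KO, and of the 5 tested duct markers 1 was lower and 1 higher. Beside these counts, 16.5% of all 13065 genes tested were lower and 9.05% higher. The leukocyte markers summed to 139.5 to 165 FPKM in FL and 197 to 237 FPKM in KO, and the stellate and fibroblast markers to 12.6 to 21.3 and 25.1 to 35.3 FPKM. The library KO2 stood apart from the other KO libraries in the OXPHOS transcripts, so the counts for all members and for each complex are given with it and without it.

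Of the 87 OXPHOS transcripts tested, 16 fell in KO islets and 1 rose: complex I subunits made 10 of the 16, and complexes III, IV and V, with 1 assembly factor, the rest. The called decreases were small, from -34.3% for Cox7a1 to -11.5% for Atp5a1, with a median of -15.2%, all computed on FPKM + 1. By limma at an adjusted p of at most 0.05, 18.4% of the 87 were lower, where 16.5% of all genes tested were, and 1.15% were higher, against 9.05% of all genes. The share called lower is near that of all genes and is not a result about OXPHOS as a set. Among the 2299 genes that averaged 50 FPKM or more, a level more like that of these transcripts, 19.1% were lower and 6.87% higher. The median difference over the 87 was -0.11 on the log2(FPKM + 1) scale, beside -0.06 over all genes tested, and 69 of the 87 lay below 0, a side taken by 61.9% of all genes. In 5 of the 87 (5.75%: Ndufa5, Ndufa6, Ndufv1, Uqcrc2 and Cox8a) every KO library lay below every FL library, a pattern found in 12.5% of all genes tested, and in none did every KO library lie above, against 6.67% of all genes.

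The count of decreases moved with the scaling of the libraries and with single libraries. With median-ratio scaling 9 members were called lower and 3 higher, all 9 being among the 16, while over all genes the calls moved from 2150 lower and 1183 higher to 1485 lower and 1651 higher. Without KO2, 29 of 87 (33.3%) were called lower, where 18.3% of all genes were. Without FL3 or without KO1 the count was 8 (9.2%, where 12.8% and 13.0% of all genes were lower), and without FL1, FL4 or KO4 it was 9 (10.3%, where 15.3%, 14.2% and 12.3% were). The median of the OXPHOS transcripts stayed below that of all genes under every scaling tried. It was -0.04 beside 0.00 with median-ratio scaling and -0.06 beside -0.01 with upper-quartile scaling. With quantile normalization it was -0.04 beside -0.02, and with TPM -0.06 beside -0.02. In bulk islet RNA, fewer cells of a type and less RNA per cell cannot be told apart, and the part that the shifts in endocrine and non-endocrine markers have in these small decreases was not tested.

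**Figure D1:**
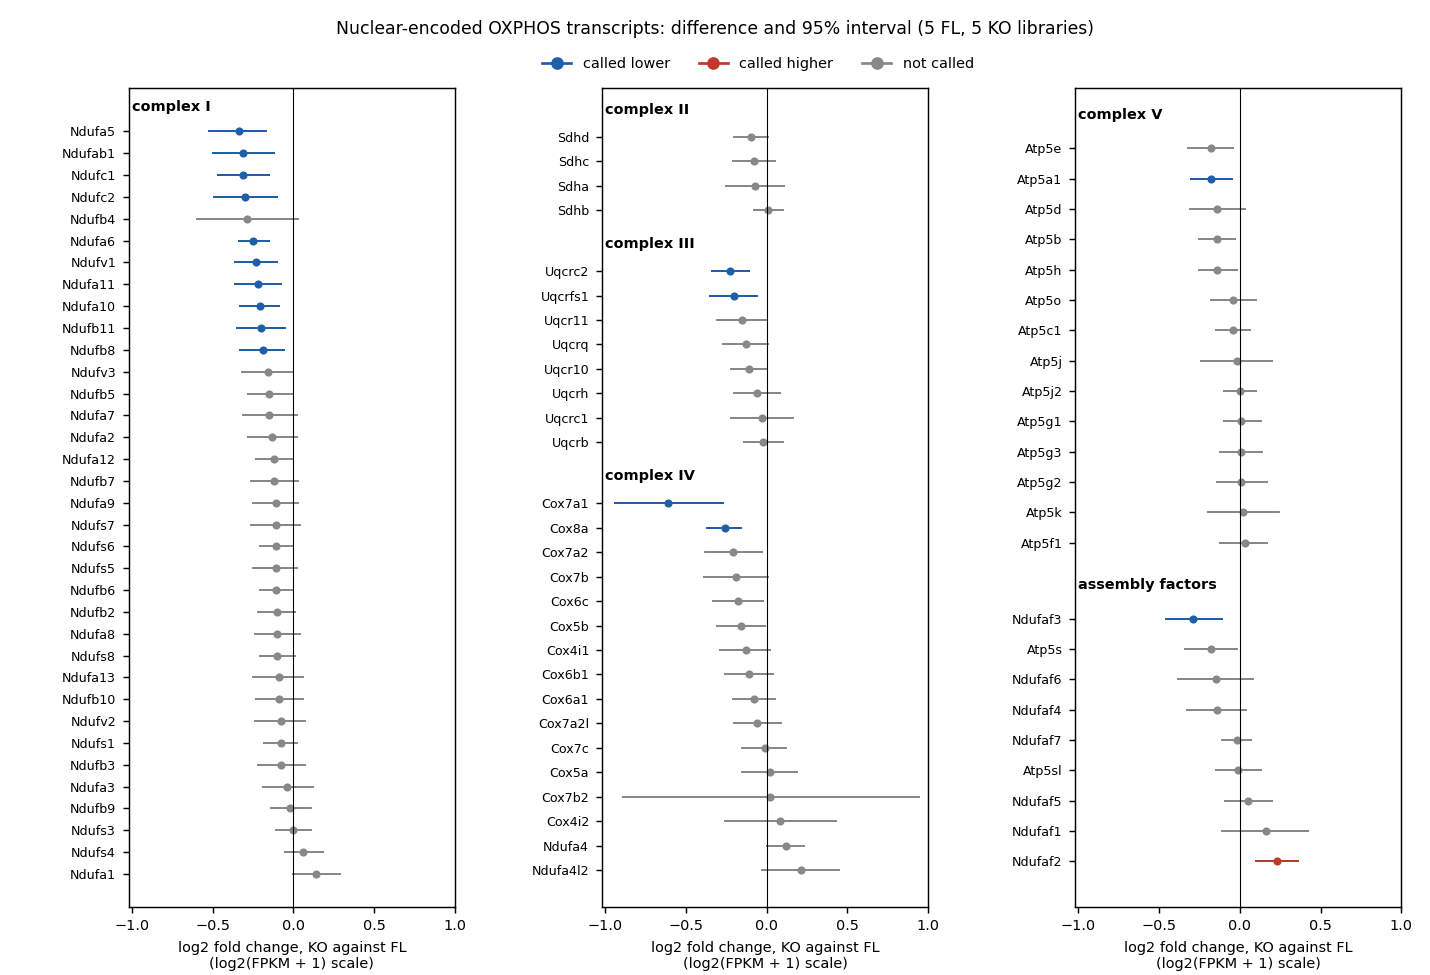
Difference between KO and FL for 86 of the 87 transcripts tested, by complex, on the log2(FPKM + 1) scale (horizontal axis), with the 95% interval from limma (bars, 5 FL and 5 KO libraries). Blue marks the 16 called lower, red the 1 called higher (Ndufaf2) and grey the rest. Most points lie left of 0 and most intervals reach or nearly reach it, and the c ring genes Atp5g1, Atp5g2 and Atp5g3 sit at 0.01.

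Promoters are shown for 5 members that passed the test, the 3 of lowest adjusted p with a single annotated start (Ndufa6, Cox8a and Ndufc1), Ndufa11, whose stretch holds a motif of nuclear respiratory factor 1 (NRF1), and Ndufaf2, the transcript that rose. Each is the 100 bases before the start of the gene, 5′ to 3′ on the strand of the gene, from the RefSeq promoter table (GRCm38.p6), ending before the first start given by RefSeq or GENCODE M21. Capitals mark GCATGCGC (NRF1), CCGGAA (ETS factors such as GABP), GGGCGG (SP1) or AAGGTCA (estrogen-related receptors), on either strand. They cover chr15:82354323-82354422 for Ndufa6, chr19:7217617-7217716 for Cox8a, chr3:51408989-51409088 for Ndufc1, chr17:56717662-56717761 for Ndufa11 and chr13:108158626-108158725 for Ndufaf2, with only Ndufa11 on the plus strand.
Ndufa6: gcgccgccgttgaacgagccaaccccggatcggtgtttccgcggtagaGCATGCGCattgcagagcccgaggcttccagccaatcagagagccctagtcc
Cox8a: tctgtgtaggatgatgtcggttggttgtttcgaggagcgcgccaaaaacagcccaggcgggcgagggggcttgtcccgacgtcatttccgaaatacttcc
Ndufc1: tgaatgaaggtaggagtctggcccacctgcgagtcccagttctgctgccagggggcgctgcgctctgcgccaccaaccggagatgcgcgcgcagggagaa
Ndufa11: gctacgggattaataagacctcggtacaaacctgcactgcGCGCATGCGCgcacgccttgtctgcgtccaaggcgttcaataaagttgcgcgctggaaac
Ndufaf2: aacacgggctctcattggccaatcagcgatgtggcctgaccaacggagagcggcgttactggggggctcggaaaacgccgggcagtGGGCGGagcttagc

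Ndufa6 holds 1 NRF1 motif in this stretch, Ndufa11 holds the motif on both strands as an overlapping palindrome, and Ndufaf2 holds 1 SP1 motif. Cox8a and Ndufc1 hold none of the 4 there, which says only that these letters are absent from these 100 bases. In the full windows described next, Cox8a holds 3 ETS motifs and Ndufc1 holds none of the 4. Over the full windows of 250 bases before to 50 after the start, which were found for 76 of the 91 members (73 by symbol and 3 by an older symbol), the NRF1 motif was in 12 of 76 (15.8%), against 3.05% of all 27025 genes in the table and 6.16% of the 9631 tested genes found in it. The ETS motif was in 35.5% of the members, 31.2% of the tested genes and 16.7% of all genes. The receptor motif was in 10.5%, 3.79% and 5.38%. The SP1 motif was in 44.7% of the members, below the 69.9% of the tested genes but above the 38.2% of all genes. Among the 14 called lower that have a window, the NRF1 motif was in 2 (14.3%), the ETS motif in 5 (35.7%) and the SP1 motif in 6 (42.9%), close to the shares over all members, and the receptor motif in 0. The transcript of Nrf1, which encodes nuclear respiratory factor 1, was itself higher in KO, at 31.9, 30.3, 34.6, 32.7 and 34.7 FPKM in FL1 to FL5 and 46.2, 45.9, 43.6, 40.5 and 38.3 FPKM in KO1 to KO5, without overlap (log2 difference 0.37, limma adjusted p 0.00168). Gabpa, which encodes an ETS factor, did not pass the test (log2 difference 0.12, 95% interval -0.09 to 0.32), nor did Esrra, an estrogen-related receptor at 15.9 ± 2.03 FPKM (FL) against 15.1 ± 0.879 FPKM (KO) (SD, n = 5, log2 difference -0.07, limma adjusted p 0.604). Esrrg, a scarcer receptor of that family, fell from 4.93 ± 0.374 to 3.58 ± 0.325 FPKM (SD, n = 5, adjusted p 0.00269 by limma). No relation between these factors and the members was tested.

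Complex I had 10 of its 36 transcripts called lower (27.8%) and none higher, with a median difference of -0.11 and 33 of 36 below 0, beside 16.5% of all genes tested called lower and 9.05% higher. With median-ratio scaling 5 were called lower (13.9%, beside 11.4% of all genes) and 1 higher, with a median of -0.05, and with TPM 4 were lower (11.1%, beside 11.7%). The count was 15 (41.7%, beside 18.3%) without KO2. It was 5 (13.9%) without FL3 or without KO1 and 6 (16.7%) without FL1, FL4 or KO4, where the shares of all genes were those given above for these libraries. Its 7 nuclear core subunits together, though not each of them, carry the flavin and the iron-sulfur clusters, and the 29 supernumerary subunits surround and stabilize the core. One of the 7 core subunits and 9 of the 29 supernumerary ones were lower. By position, 3 of 16 tested transcripts of the matrix arm, which takes electrons from NADH, and 6 of 19 of the membrane arm, which pumps protons, were lower, and Ndufab1, the mitochondrial acyl carrier protein found in both arms, made the tenth. The difference between these shares was not tested.

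Ndufa6, a supernumerary subunit of the matrix arm that binds the acyl carrier protein, was the transcript of lowest adjusted p. It lies at chr15:82350140-82354322 (minus strand). Its level was 269.8, 286, 274, 277 and 284 FPKM in FL1 to FL5 and 220.5, 251.9, 233, 234 and 235 FPKM in KO1 to KO5. The groups did not overlap, and KO2 was the KO library closest to FL. On the log2(FPKM + 1) scale the difference was -0.25 (95% interval -0.34 to -0.15), a change of -15.7%, with an adjusted p of 0.00257 by limma and a p of 0.00794 by the exact two-sided permutation test of that gene alone, the smallest that 5 against 5 can give. It stayed called in 25 of 26 alternative analyses.

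Ndufa5, another supernumerary subunit of the matrix arm, at chr6:24518666-24528013 (minus strand), had the lowest difference of complex I. It was listed at 199, 202, 213, 257 and 229 FPKM in FL1 to FL5 and 153, 189, 183, 172 and 168 FPKM in KO1 to KO5. The groups did not overlap, and FL4 was the highest library. The difference was -0.34 (95% interval -0.52 to -0.17, limma adjusted p 0.0107). Ndufv1, the core subunit that binds NADH and flavin, at chr19:4007384-4012806 (minus strand), was tightly grouped in FL at 88.8, 88.8, 92.9, 89.6 and 91.0 FPKM and spread in KO at 71.1, 85.4, 81.9, 69.4 and 76.8 FPKM. It was the core subunit called lower (log2 difference -0.23, SE 0.06, limma adjusted p 0.0164), and it was not called with TPM.

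The other 6 core subunits did not pass the test. Log2 differences were -0.11 for Ndufs7, -0.10 for Ndufs8, -0.08 for Ndufs1, -0.08 for Ndufv2 and 0.00 for Ndufs3. The intervals still allowed decreases: for Ndufs1, the largest core subunit, with 47.1 ± 2.26 FPKM (FL) against 44.5 ± 1.77 FPKM (KO), the 95% interval was -0.18 to 0.02, and for Ndufs3 it was -0.11 to 0.11. Reads of Ndufs3 are in part ambiguous, since 27.1% of its 75-base windows occur in another gene's transcripts.

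Ndufc1, a small subunit of the membrane arm, was listed at 313, 276, 268, 296 and 271 FPKM in FL1 to FL5 and 214, 268, 235, 212 and 219 FPKM in KO1 to KO5. Only KO2 reached the lowest FL value (log2 difference -0.31, 95% interval -0.47 to -0.15, limma adjusted p 0.0105). The other 6 called decreases of complex I were those of Ndufab1 (-0.31), Ndufc2 (-0.30), Ndufa11 (-0.22), Ndufa10 (-0.21), Ndufb11 (-0.20) and Ndufb8 (-0.19), all supernumerary. Under each of the 4 other scalings Ndufc2, Ndufa11, Ndufb11 and Ndufb8 were not called, and Ndufab1 was not with median-ratio scaling or TPM. In Ndufc2 the KO libraries lay between 152 and 158 FPKM while FL ranged from 155 to 222 FPKM, so the spread was on the FL side. Ndufb11 and Ndufb8 were near the threshold, at adjusted p 0.0491 and 0.0423 by limma. Ndufa1, a membrane arm subunit needed for assembly of the complex and encoded on the X chromosome, had the highest difference of complex I at 0.14 (95% interval -0.00 to 0.29, not called, but called higher with 3 of the 4 other scalings).

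**Figure D2:**
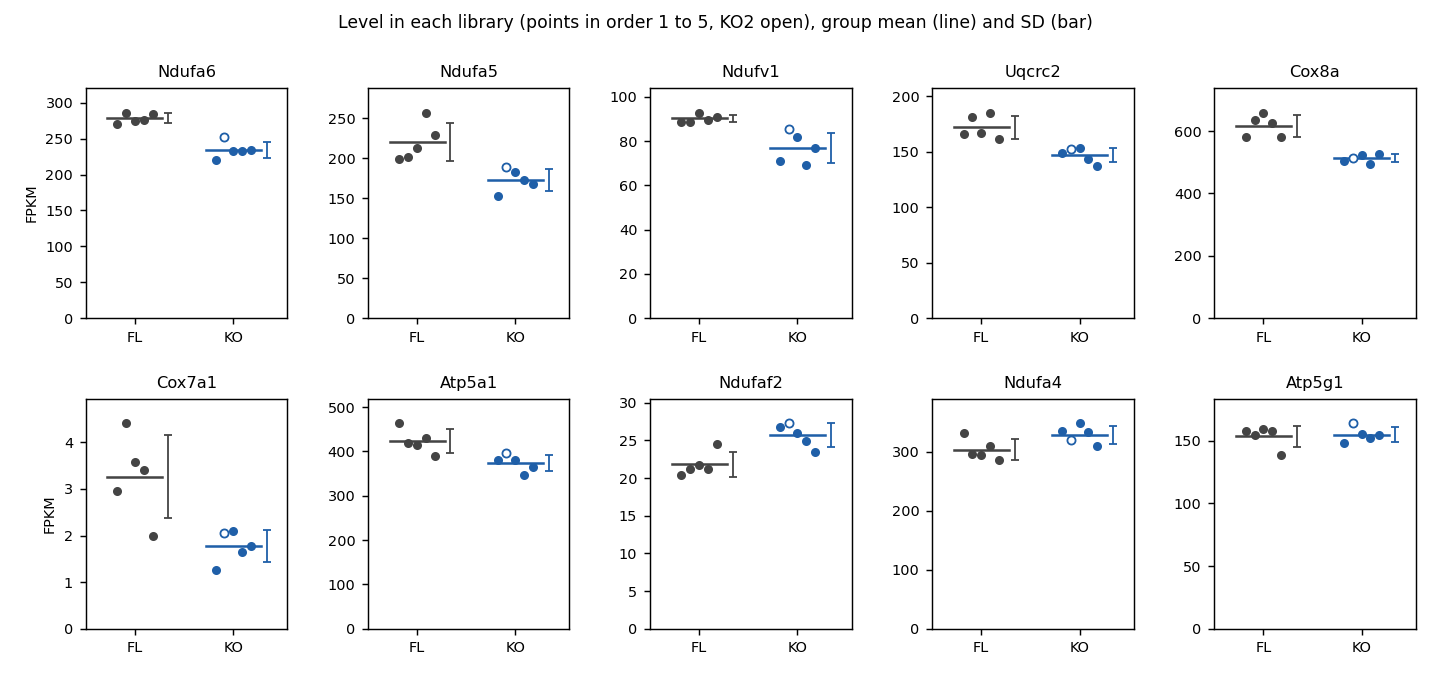
FPKM in each library (vertical axes start at 0) for 10 transcripts, with the mean as a line and the SD as a bar beside each group (n = 5). In Ndufa6, Ndufa5, Ndufv1, Uqcrc2 and Cox8a the FL and KO points do not overlap, in Cox7a1, Atp5a1 and Ndufaf2 they overlap at the edges, and in Ndufa4 and Atp5g1, which were not called, they mix. KO2 (open symbol) is the highest KO point in Ndufa6, Ndufa5, Ndufv1, Atp5a1, Ndufaf2 and Atp5g1.

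No transcript of complex II, which oxidizes succinate and is also an enzyme of the tricarboxylic acid (TCA) cycle, passed the test. Of all genes tested, 16.5% were called lower and 9.05% higher, so 0 of 4 does not set complex II apart. Sdha, the flavoprotein, was at 375 ± 14.9 FPKM (FL) against 359 ± 43.7 FPKM (KO), and Sdhb, the iron-sulfur subunit, at 92.0 ± 2.01 FPKM (FL) against 92.6 ± 3.29 FPKM (KO) (SD, n = 5). Their log2 differences were -0.07 (95% interval -0.25 to 0.11) and 0.01 (95% interval -0.08 to 0.10). Within KO, Sdha ran from 295 FPKM in KO5 to 409 FPKM in KO2, wider than the whole FL range of 357 to 398 FPKM. The count of 0 held without KO2, where 18.3% of all genes were called lower. By limma none of the 4 had an unadjusted p under 0.05, and none was called by an exact Wilcoxon test. The membrane anchors Sdhc and Sdhd had differences of -0.08 and -0.10.

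All 8 complex III transcripts lay below 0 and 2 fell (25.0%), where 16.5% of all genes tested were called lower and 61.9% lay below 0. With median-ratio scaling 5 of the 8 lay below 0 and 1 was called. Without KO2 4 were called lower (50%, beside 18.3% of all genes), without FL5 2 and without any other single library 1. Uqcrc2, a core protein of the matrix side, at chr7:120635176-120659524 (plus strand), was listed at 166, 181, 167, 185 and 162 FPKM in FL1 to FL5 and 149, 152, 154, 143 and 137 FPKM in KO1 to KO5. Each KO value was under the lowest FL value (log2 difference -0.23, 95% interval -0.34 to -0.11, limma adjusted p 0.0111), and KO2 did not stand out here. Uqcrfs1, the Rieske iron-sulfur protein that hands electrons to cytochrome c1, was at 79.3, 86.7, 81.4, 92.4 and 78.3 FPKM in FL1 to FL5 and 72.7, 82.5, 67.6, 68.5 and 71.7 FPKM in KO1 to KO5. KO2 alone fell within the FL range (log2 difference -0.20, limma adjusted p 0.0444), and the call was lost under each of the 4 other scalings. Uqcrq, the most abundant of the complex at 608 ± 49.3 FPKM (FL) against 555 ± 32.8 FPKM (KO), was not called (95% interval of the log2 difference -0.27 to 0.01). Of the partners named outside the rule, Cyc1, the cytochrome c1 subunit, fell from 96.7 ± 5.19 to 85.9 ± 2.79 FPKM without overlap (adjusted p 0.0238 by limma), and 2010107E04Rik, an ATP synthase subunit, also fell (log2 difference -0.20, adjusted p 0.0281 by limma). These were the 2 of 5 such genes tested that passed.

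Complex IV, cytochrome c oxidase, has several subunits with tissue-specific isoforms, and 2 of its 16 tested transcripts fell (12.5%, beside 16.5% of all genes tested). Without KO2 5 were called lower (31.2%, beside 18.3%), and without any other single library 2. Cox8a, the ubiquitous form of the smallest subunit, at chr19:7215153-7217616 (minus strand), was listed at 582, 637, 659, 625 and 579 FPKM in FL1 to FL5 and 505, 514, 523, 494 and 527 FPKM in KO1 to KO5. The groups did not overlap and the KO values were the tighter of the 2 groups (log2 difference -0.26, 95% interval -0.37 to -0.16, limma adjusted p 0.00287). With Ndufa6 it stayed called in 25 of 26 alternatives, the exception for both being a requirement of a 1.5-fold change. The muscle form Cox8b was listed at 0 in every library but KO1, at 0.168 FPKM, and the testis form Cox8c was listed at 0 in all 10.

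Cox7a1, the form of subunit VIIa known from heart and skeletal muscle, was scarce. It was listed at 2.96, 4.41, 3.58, 3.40 and 1.99 FPKM in FL1 to FL5 and 1.26, 2.05, 2.11, 1.66 and 1.77 FPKM in KO1 to KO5. FL5 fell within the KO range and the other 4 FL libraries lay above every KO library. The log2 difference of -0.61 (95% interval -0.94 to -0.27, limma adjusted p 0.014) was the lowest of all 87 and, at this level, the added 1 FPKM makes it understate the change. The ubiquitous form Cox7a2 was at 179.5 ± 12.4 FPKM (FL) against 156 ± 18.4 FPKM (KO) and was not called (95% interval -0.38 to -0.03, limma adjusted p 0.0778). In it KO2 was at 189 FPKM and the other KO libraries lay between 146 and 150.1 FPKM, and it was called lower without KO2. Cox7a2l, a related protein of respiratory supercomplexes, had a log2 difference of -0.06, which turned to 0.01 with median-ratio or quantile scaling.

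The remaining isoform pairs were each led by the ubiquitous form in islets, and none of their tested members passed the test. Cox6b2 was under the threshold for testing. Cox4i1 was at 459 ± 35.6 FPKM (FL) against 418 ± 36.8 FPKM (KO), while the hypoxia-linked form Cox4i2 was at 1.02 ± 0.488 FPKM (FL) against 1.11 ± 0.227 FPKM (KO). Cox6b1 was at 687 ± 39.2 FPKM (FL) against 639.5 ± 57.4 FPKM (KO), while Cox6b2, known from testis, was listed at 0 in 3 FL libraries and did not exceed 0.652 FPKM in any library. Cox7b was at 266 ± 37.8 FPKM (FL) against 232 ± 16.3 FPKM (KO), and Cox7b2 at 2.36 ± 1.37 FPKM (FL) against 2.45 ± 1.66 FPKM (KO). In each pair the first form was the abundant one in every library, on this per-length scale. Cox7b2 varied most of the members tested, from 0.253 to 3.87 FPKM in FL and from 0.715 to 4.61 FPKM in KO, so its interval of -0.89 to 0.94 leaves a change in either direction possible. Cox6a1, the ubiquitous form of subunit VIa, was not called either (log2 difference -0.08, 95% interval -0.21 to 0.05).

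Ndufa4, first taken for a complex I protein and now placed in complex IV, ran against most of the set. Its level was 331, 297, 294, 309.5 and 287 FPKM in FL1 to FL5 and 335, 319, 348, 333 and 309 FPKM in KO1 to KO5. FL1 lay within the KO range and FL4 just above KO5, the lowest KO library (log2 difference 0.12, 95% interval -0.00 to 0.23, limma adjusted p 0.133), so it was not called, but with median-ratio, upper-quartile and quantile scaling it was called higher. Its hypoxia-linked paralog Ndufa4l2 was at 1.75 ± 0.306 FPKM (FL) against 2.18 ± 0.397 FPKM (KO) and was not called (95% interval -0.03 to 0.45).

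Complex V had the most abundant transcript of all members and 1 called decrease among 14 tested (7.14%, beside 16.5% of all genes tested). Without KO2 4 were called lower (28.6%, beside 18.3%), without FL5 1 and without any other single library none. Atp5b, the catalytic β subunit of the F1 head, was listed at 746, 705, 726, 778 and 719 FPKM in FL1 to FL5 and 654, 731, 676, 634 and 641 FPKM in KO1 to KO5. KO2 alone lay within the FL range, and the difference of -0.14 (95% interval -0.25 to -0.03) did not pass the test (limma adjusted p 0.0684), but did without KO2 (adjusted p 0.017). Atp5a1, the α subunit that alternates with β in the head, was at 464, 419.7, 414, 430.0 and 389 FPKM in FL1 to FL5 and 381, 397, 381, 347 and 366 FPKM in KO1 to KO5, and fell (log2 difference -0.18, limma adjusted p 0.0407) with KO2 overlapping FL5. It was not called under any of the 4 other scalings. All 5 F1 transcripts lay below 0, with a median of -0.14, except that Atp5c1, the γ subunit, moved from -0.04 to 0.02 with median-ratio scaling and 0.03 with quantile normalization.

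The c ring, the rotor that turns as protons pass, is made from identical mature proteins encoded by Atp5g1, Atp5g2 and Atp5g3. Atp5g1 was at 153 ± 8.62 FPKM (FL) against 155 ± 5.72 FPKM (KO), Atp5g2 at 107 ± 9.96 FPKM (FL) against 108 ± 6.98 FPKM (KO) and Atp5g3 at 312 ± 24.9 FPKM (FL) against 313 ± 7.47 FPKM (KO) (SD, n = 5). Each log2 difference was 0.01, with 95% intervals of -0.10 to 0.13, -0.14 to 0.17 and -0.12 to 0.14, which leave room for a decrease of the size seen in part of the set. Of the windows of Atp5g2, 35.8% also occur in another gene. Transcripts of the peripheral stalk (4 tested) and of the membrane part (2 tested) had medians of -0.03 and 0.01. None of these or of the 3 of the c ring passed the test, where 16.5% of all genes tested were lower and 9.05% higher. Of these transcripts 1, of the stalk, had an unadjusted p under 0.05, and 0 were called by the Wilcoxon test. So few transcripts cannot show that these parts differ from all genes. Median-ratio scaling moved the median of complex V from -0.03 to 0.03, so no direction is given for it.

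Atp5l, subunit g of the ATP synthase, was listed at 0.251 to 0.495 FPKM in FL and 0.429 to 0.665 FPKM in KO, under the threshold for testing, while the other 14 members of complex V averaged 107 FPKM or more in FL. Of its 75-base windows, 63.4% occur in transcripts of other genes, among them Gm10221, Gm4853 and a processed pseudogene, and none of those averaged over 0.188 FPKM in either group. Its listed level is therefore not read as its abundance. The 13 other tested members with over 10% of their windows shared had a median difference of -0.04, beside -0.06 over all genes tested. None of the 13 was called by limma or the Wilcoxon test, while 3 had an unadjusted p under 0.05. By limma 16.5% of all genes tested were lower and 9.05% higher, and whether the 13 differ from them was not tested.

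Of 9 members grouped as assembly factors, 1 fell and 1 rose (11.1% each, where 16.5% of all genes tested were lower and 9.05% higher). Besides factors that help build complex I, the group holds Atp5s, annotated as factor B and not as an assembly factor. Ndufaf3, which acts early in complex I assembly, was listed at 91.3, 78.6, 85.3, 91.8 and 77.2 FPKM in FL1 to FL5 and 65.3, 83.3, 66.6, 64.1 and 68.0 FPKM in KO1 to KO5. KO2 lay inside the FL range and the other KO libraries below it (log2 difference -0.29, limma adjusted p 0.0233, not called with TPM or without FL1, FL3, FL4, KO1 or KO4). Ndufaf2, a paralog of Ndufa12 that binds late intermediates of complex I, at chr13:108002715-108158623 (minus strand), was at 20.4, 21.3, 21.7, 21.2 and 24.6 FPKM in FL1 to FL5 and 26.9, 27.3, 26.0, 25.0 and 23.4 FPKM in KO1 to KO5. Only FL5 reached above the lowest KO value (log2 difference 0.23, 95% interval 0.10 to 0.36, limma adjusted p 0.0177), and it stayed called under each of the 4 other scalings and when any 1 library was left out. Assembly factors outside the name rule gave 0 of 7 called by limma for complex I (3 with an unadjusted p under 0.05, 0 by the Wilcoxon test), 1 of 4 for complex II (Sdhaf1, log2 difference -0.27), 1 of 6 for complex III, 2 of 24 for complex IV and 0 of 3 for complex V (0 with an unadjusted p under 0.05, 0 by the Wilcoxon test), each of those called being lower, as were 16.5% of all genes tested. Uqcc2, a complex III factor, went from 482, 439.6, 488, 485 and 458 FPKM in FL1 to FL5 to 401, 404, 404, 369 and 367 FPKM in KO1 to KO5, without overlap (adjusted p 0.00277 by limma). In complex IV those called were Lrpprc, which stabilizes mtDNA-encoded mRNAs (log2 difference -0.30), and Cox14 (-0.15).

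Across libraries, the level of the set was set apart by KO2. The median over the 87 transcripts, taken as log2(FPKM + 1) minus the FL mean of each gene, was between -0.02 and 0.05 in the FL libraries, -0.10 in KO1, 0.03 in KO2, -0.10 in KO3, -0.17 in KO4 and -0.17 in KO5. The other 4 KO libraries lay below every FL library, and KO2 lay among the FL libraries. KO2 was the highest KO library in 58 of the 87 transcripts, and KO5 the lowest in 41. The same medians over all 13065 genes were -0.03 to 0.02 in FL and -0.11 to -0.01 in KO. Complex I alone kept every KO library at or below the lowest FL library to 2 decimals, with KO2 at -0.03 and the others from -0.21 to -0.13, whereas in complexes II, III, IV and V KO2 lay at 0.08, 0.02, 0.07 and 0.00.

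**Figure D3:**
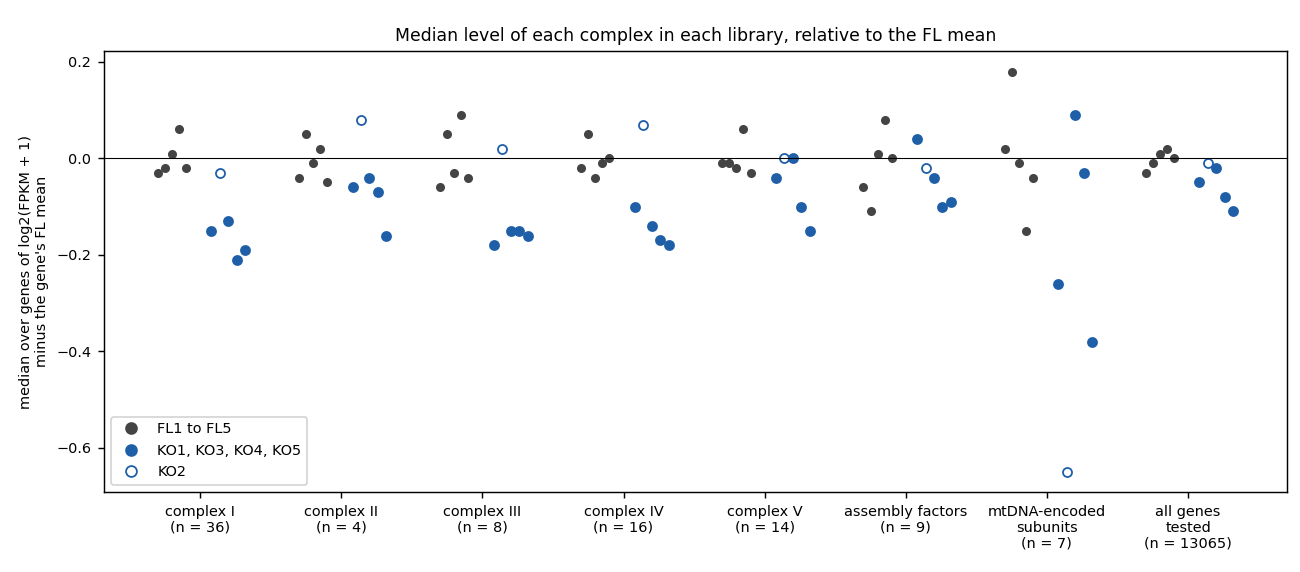
Median over genes of log2(FPKM + 1) minus the FL mean of each gene (vertical axis), for each complex, the 7 measured mtDNA-encoded subunits and all genes tested (horizontal axis). Each point is 1 library, with KO2 as an open symbol. KO2 lies with or above the FL libraries in complexes II, III, IV and V and in the assembly factors. In the mtDNA-encoded subunits it lies at -0.65, below every other library.

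The mtDNA-encoded partners ordered the libraries differently. Of the 13 genes, 6 (mt-Co2, mt-Co3, mt-Atp6, mt-Atp8, mt-Nd3 and mt-Nd4l) were listed at 0 in all 10 libraries and 7 were measured, all 7 with a log2 difference below 0 (mt-Cytb turned to 0.03 with quantile normalization) and 2 of them called lower, where 61.9% of all genes tested lay below 0 and 16.5% were called lower. mt-Nd1, a membrane subunit of complex I, was at 2546, 2554, 2437, 2338 and 2401 FPKM in FL1 to FL5 and 1984, 1303, 2250.5, 2162 and 1805 FPKM in KO1 to KO5. All KO libraries lay below all FL libraries, KO2 by the widest margin (log2 difference -0.39, SE 0.13, limma adjusted p 0.0437). mt-Co1, the catalytic subunit of complex IV, was at 4189, 4115, 3866, 3729 and 3828 FPKM in FL1 to FL5 and 3208, 2594, 3805, 3245 and 2928 FPKM in KO1 to KO5 (log2 difference -0.33, limma adjusted p 0.0217). Without KO2 both stayed called, at -0.26 each, and mt-Nd2 was called too, at -0.25. With median-ratio or quantile scaling none of the 7 was called, and with upper-quartile scaling or TPM mt-Co1 alone was. The median of the 7 was -0.65 in KO2, -0.38 in KO5, -0.26 in KO1, -0.03 in KO4 and 0.09 in KO3, against -0.15 to 0.18 in FL. So the KO library with the highest nuclear-encoded level had the lowest mtDNA-encoded level, an order given here as a description of 5 libraries. The libraries were made from polyadenylated RNA, and the part of RNA selection in this was not tested.

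The enzymes that feed the chain and the carriers around it were counted in the same way. Of 19 genes of the TCA cycle and pyruvate dehydrogenase, which supply the electrons, 7 were lower (36.8%) and 1 higher (5.26%), where 16.5% of all genes tested were lower and 9.05% higher. By the exact Wilcoxon test 5 of the 19 were called. In 4 of them every KO library lay below every FL library, as in 12.5% of all genes tested. The limma count is given for the main test only, not for other scalings or with single libraries left out. Fh1, fumarate hydratase, had the lowest adjusted p of the 19, with 97.1, 119, 108, 114 and 111 FPKM in FL1 to FL5 and 74.8, 88.3, 86.2, 78.4 and 77.9 FPKM in KO1 to KO5. Its groups did not overlap (log2 difference -0.43, limma adjusted p 0.000887). Dlst of the oxoglutarate dehydrogenase complex was also lower (log2 difference -0.15), while Ogdh, the first enzyme of that same complex, was higher, at 69.0 ± 3.58 FPKM (FL) against 84.9 ± 7.09 FPKM (KO) (log2 difference 0.29, limma adjusted p 0.00626). Of 11 tested genes of coenzyme Q synthesis, 2 were lower (Coq10b -0.28, Coq2 -0.17) and none higher. Of 7 tested carriers of ADP, ATP and protons, Ucp2, the uncoupling protein found in islets, was the 1 called, and it was higher, at 197, 199, 199, 185 and 198 FPKM in FL1 to FL5 and 227, 264, 219, 235 and 223 FPKM in KO1 to KO5 (log2 difference 0.25, limma adjusted p 0.00799). Of 15 tested regulators of mitochondrial gene expression, Esrrg was lower and Nrf1 higher.

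**Figure D4:**
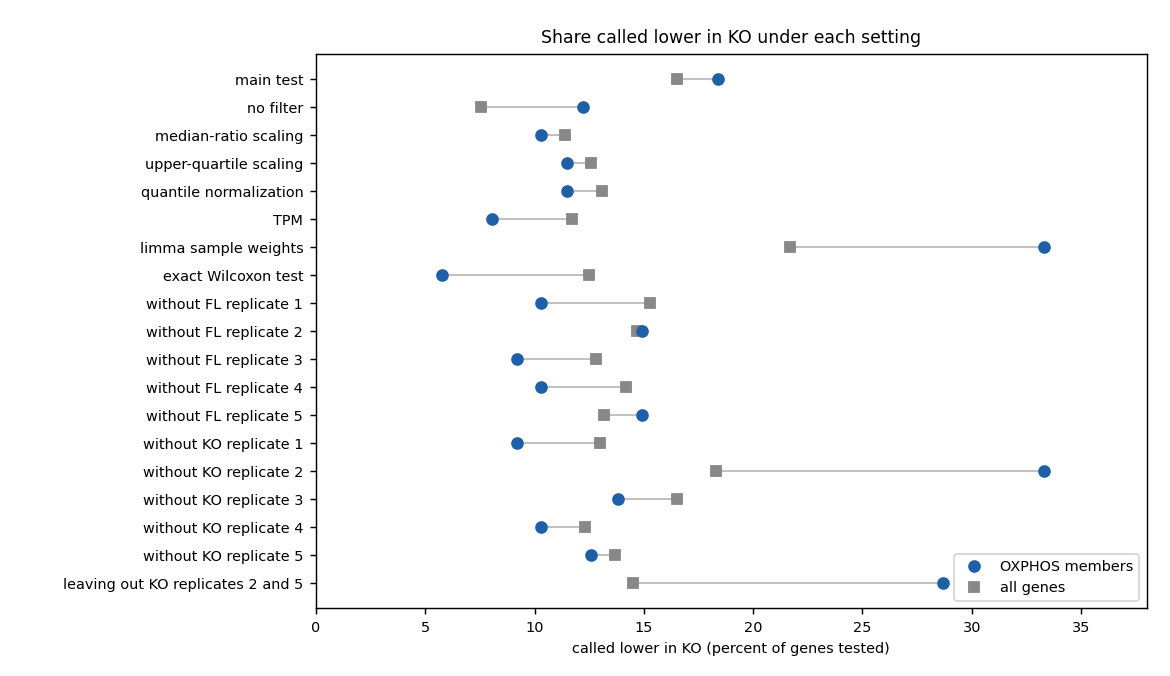
Share of genes called lower in KO (horizontal axis, percent of those tested) for the OXPHOS transcripts (circles) and for all genes (squares) in the main limma test and under other settings (rows). The circle lies left of the square in most rows, right of it in the main test (18.4% and 16.5%), and farthest right of it with KO2 left out (33.3% and 18.3%).

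The precision of the design bounds what these data could show. The median half-width of the 95% intervals over the 87 transcripts was 0.14 on the log2 scale, and the coefficient of variation between mice had a median of 6.17% in FL and 7.38% in KO. A difference near the median of -0.11 therefore mostly had an interval that reached 0, and a transcript that did not pass the test is not shown to be unchanged.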

How the data were processed

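The authors sequenced polyadenylated islet RNA with a stranded kit and single reads of 75 bases and deposited 1 table of FPKM per gene and mouse. The submitters' processing notes name STAR 2.5.2a, Cuffnorm 2.2.1 and the builds mm10 and GRCm38. How the libraries were scaled is not given in the sources used here, and read totals are unknown. Relative depth was read from the smallest values, under 0.3 FPKM. All 10 columns were mapped by name. Each mouse was 1 replicate, so p-values measure the spread between mice of 5 FL and 5 KO. The submitters' label calls the FL genotype wild type and the sample title floxed.

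Genes that averaged 1 FPKM or more in either group were tested on log2(FPKM + 1) with limma 3.58.1 (R 4.3.3, moderated with a mean trend), with Benjamini-Hochberg adjustment over all 13065 genes and a call at an adjusted p of at most 0.05. The FPKM are not counts, so no count model was used. Errors are SD over 5 mice unless given as SE. The fit was tested on simulated data, but no outcome of that is reported here. Coordinates come from GENCODE M21 (GRCm38), where 46927 of 47340 gene IDs were found when versions were ignored, and ambiguity was counted as the share of 75-base windows of a gene found in transcripts of another gene. Genes were named by rule: complex I core subunits, complex II, the Rieske protein, isoform families, up to 3 called members per complex and direction, the 5 highest members, those listed at 0, and up to 3 called genes per pathway list and direction. Where others were named (the rest of the called members, Ndufa1, Atp5l, Atp5c1, Gabpa, Esrra, and mtDNA genes that were not called), they were chosen after their values were seen. Some genes that the rule names are counted but not reported by name here. Numbered pseudogene names were treated as names ending in -ps. The members and lists were chosen with earlier results of these data known. Alternatives changed the pseudocount, filter, scaling, limma options, test, threshold and libraries.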

Additional observations from a re-analysis of the deposited data

Results flagged for a closer look

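Among the 107 groups of 5 libraries looked at for the named genes, 8 held a library whose gap to the next exceeded the 95% limit of Dixon's test, where chance gives about 1 in 20 groups. In KO2, Cox7a2 was at 188.7 FPKM with the next KO library at 150.1 FPKM, and Ndufaf3 at 83.3 FPKM with the next at 68.0 FPKM. Uqcrq was at 614 FPKM in KO5, above the next KO library at 546 FPKM. In FL4, Cox7a2l was highest of FL at 258 FPKM and Ucp2 lowest at 184.6 FPKM. Atp5g1 was lowest of FL in FL5 at 138.3 FPKM. Coq2 was lowest of KO in KO3 at 36.1 FPKM. Cox8b was at 0.168 FPKM in KO1 and listed at 0 in the other 4 KO libraries.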

How the results depend on the processing

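None of the alternatives that give a fold change turned the sign of the median difference of the OXPHOS transcripts, which lay between -0.12 and -0.04. The count of members called lower, 16 in the main test, was 9 with median-ratio scaling, 10 with upper-quartile scaling, 10 with quantile normalization, 7 with TPM, 29 with limma sample weights, 5 with an exact Wilcoxon test, 7 with the replicate number as a block, 2 at an adjusted p of at most 0.01 and 1 with a 1.5-fold change required. It ranged from 8 (without FL3 or without KO1) to 29 (without KO2) when 1 library was left out, and was 25 without KO2 and KO5, a choice made after seeing the data. The count called higher, 1 in the main test, was 3 with median-ratio, upper-quartile or quantile scaling, 2 with sample weights, and 0 with the Wilcoxon test, the block, the stricter p or the 1.5-fold requirement. Leaving out members with near copies, also chosen after seeing the data, changed neither count. Over all genes, 1044 were lower and 622 higher at an adjusted p of at most 0.01, and 290 and 349 with 1.5-fold required. Replicate numbers did not pair the mice: correlations of same-numbered libraries ran from -0.102 to 0.003, so calls lost under the block are not read as weaker effects.

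Over the named genes and the alternatives, 1155 results kept their direction and their side of the threshold, 162 lost a call, 11 gained one and 19 changed sign at 2 decimals, all 19 in uncalled genes near 0. Ndufs3, at 0.00 and so not counted there, lay between -0.02 and 0.06. Cox7a2l was at 0.01 with median-ratio scaling and with quantile normalization. With quantile normalization Cox7b2 was at -0.09 and Cox4i2 at -0.02, and with sample weights Cox7b2 was at -0.13. Without KO2 and KO5, Cox4i2, Sdhb and Atp5g1 were each at -0.01. Leaving out 1 library moved Cox7b2 between -0.30 and 0.24, Sdhb between -0.01 and 0.02, Atp5g1 between -0.02 and 0.03, Atp5g2 between -0.03 and 0.04 and Atp5g3 between -0.03 and 0.05. The causes were not tested. Read totals are unknown, which limits what can be said of the members under 1 FPKM.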
